A study of Mus musculus with 2 samples.

Results

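The 9 genes Klf2, Klf4, Klf6, Ier2, Ier3, Nr4a1, Dusp1, Btg2 and Zfp36 were followed across the cells of the mouse retina, in wild-type (WT) mice and in mice with a mutation of the mitochondrial gene for ND6, a subunit of respiratory complex I. They were matched by symbol and are 9 of the 32285 genes counted. The genes were chosen by their measured levels across cell types and by their measured difference between the genotypes, so all of these values are a description and carry no test. The mice were C57BL/6J males aged 7 months, and each genotype was represented by 1 single-cell library of dissociated whole retina, named WT and ND6. The mutation sits in mtDNA, the line was made through embryonic stem cells and it was kept by mating mutant females with WT males. With 1 library in each group, the spread between animals is unknown, and genotype cannot be told apart from animal, dissection and library. Intervals below are 95% and cover the counting of unique molecular identifiers (UMIs, each 1 captured RNA molecule) only.

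These genes are known as immediate early or early response genes: their transcripts are made within minutes of a stimulus from factors already present in the cell, and decay quickly. Klf2, Klf4 and Klf6 are zinc-finger transcription factors of the Krüppel-like family, Nr4a1 is an orphan nuclear receptor, and Ier2 and Ier3 are small immediate early response proteins. Dusp1 is a phosphatase that shuts off MAP kinases, Btg2 restrains cell division and recruits mRNA deadenylases, and Zfp36, also called tristetraprolin, binds AU-rich mRNAs such as those of cytokines and marks them for decay. In the retina, microglia are the resident immune cells and Müller cells the main glia, and both are known to raise such genes when they are activated.

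The genes lie on 7 chromosomes of GRCm38, the build to which the reads were aligned. Klf2 (chr8:72319033-72321656, plus strand) and Ier2 (chr8:84661331-84662852, minus strand) share chromosome 8, and Ier3 (chr17:35821684-35822923, plus strand) and Dusp1 (chr17:26505590-26562128, minus strand) share chromosome 17. Klf4 lies at chr4:55527143-55532466 on the minus strand, Klf6 at chr13:5861482-5870394 on the plus strand and Nr4a1 at chr15:101254269-101274795 on the plus strand. Btg2 lies at chr1:134075170-134079120 and Zfp36 at chr7:28376784-28380253, both on the minus strand. All 9 are protein-coding. The annotated span of Dusp1 overlaps AC122252.4 and AC122252.1 on the same strand and Gm8225 and Ergic1 on the opposite strand, so its count is less certain, and that of Zfp36 overlaps Gm44710, also on the opposite strand.

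RefSeq promoters of GRCm38.p6, 250 bases before to 50 after the start site, were matched for 8 of the 9 genes, Ier2 being the exception. Early genes are known to be switched on through the cAMP response element (CRE, TGACGTCA, bound by CREB) and the CArG box (bound by SRF), so both strands were searched for these. The CRE was found in 2 of the 8 promoters, against 1.79% of all 32851 promoters, and the CArG box in 1 of the 8, against 1.63%. A GC box (GGGCGG), found in 35.7% of all promoters, was in 8 of 8. The 3 promoters with a CRE or CArG box are shown with that motif in capitals, together with that of Klf4, the gene with the largest difference between the libraries, which held neither.
Dusp1, chr17:26508423-26508722, minus strand, CRE starting 143 bases before the start site: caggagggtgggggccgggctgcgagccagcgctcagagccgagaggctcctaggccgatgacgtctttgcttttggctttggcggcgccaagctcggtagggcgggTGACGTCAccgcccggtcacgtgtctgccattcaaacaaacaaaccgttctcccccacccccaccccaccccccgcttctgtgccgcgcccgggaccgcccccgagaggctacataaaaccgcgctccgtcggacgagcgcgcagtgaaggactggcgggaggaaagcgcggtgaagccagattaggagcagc
Btg2, chr1:134079106-134079405, minus strand, CRE starting 166 bases before the start site: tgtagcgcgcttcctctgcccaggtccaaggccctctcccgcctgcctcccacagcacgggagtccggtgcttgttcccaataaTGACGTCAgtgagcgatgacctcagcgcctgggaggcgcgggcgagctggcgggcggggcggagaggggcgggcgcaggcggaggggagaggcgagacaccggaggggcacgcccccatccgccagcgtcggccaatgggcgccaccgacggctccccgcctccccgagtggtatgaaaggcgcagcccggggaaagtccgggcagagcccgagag
Zfp36, chr7:28379179-28379478, minus strand, CArG box starting 58 bases before the start site: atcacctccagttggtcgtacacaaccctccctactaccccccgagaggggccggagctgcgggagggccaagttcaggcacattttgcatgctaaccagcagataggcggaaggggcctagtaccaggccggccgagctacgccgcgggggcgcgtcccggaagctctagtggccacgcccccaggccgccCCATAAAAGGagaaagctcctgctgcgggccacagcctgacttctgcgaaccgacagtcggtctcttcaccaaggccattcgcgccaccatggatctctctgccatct
Klf4, chr4:55532426-55532725, minus strand: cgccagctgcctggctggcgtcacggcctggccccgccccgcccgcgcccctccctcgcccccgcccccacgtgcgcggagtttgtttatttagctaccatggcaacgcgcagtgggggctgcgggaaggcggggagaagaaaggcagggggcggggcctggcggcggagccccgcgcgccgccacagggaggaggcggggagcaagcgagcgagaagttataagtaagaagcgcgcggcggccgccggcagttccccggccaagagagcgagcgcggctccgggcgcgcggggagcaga
These matches are letters in a window. The Dusp1 and Btg2 promoters share the same 8 letters, and the levels of these genes differed in direction within microglia-like cells, as described below.

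The WT library held 77958836 UMIs and the ND6 library 80358255. A barcode was taken as a cell where it held over 400 UMIs and over 200 genes and no more than 20% of its UMIs came from mtDNA. This gave 12529 WT and 18395 ND6 cells with medians of 1878 and 1416 UMIs. The mtDNA limit removed 10647 WT and 3861 ND6 barcodes. The libraries shared 59 cell barcodes, 0.471% of the WT and 0.321% of the ND6 cells, and leaving these out moved no count of genes reported here by over 1.5 times. Clusters, formed without the 9 genes and without their relatives, were named from marker lists. The cells fell into macrophage- or microglia-like (257 WT and 174 ND6 cells), Müller-like (385 and 576), retinal pigment epithelium (RPE)-like (375 and 973), amacrine-like (80 and 306), bipolar-like (205 and 559), cone-like (637 and 1139) and rod-like (10292 and 14075) classes and into a cluster led by haemoglobin genes (235 and 400). This cluster was not taken as red blood cells alone, since 43.8% of its WT and 8% of its ND6 cells carried at least 2 red blood cell markers. All of its cells carried at least 2 rod markers, as did 98.4% or more of the cells of each other class. At least 2 Müller markers were carried by 60.3% of the WT and 82.8% of the ND6 Müller-like cells. No cluster met the rule for endothelial cells, and 63 WT and 193 ND6 cells stayed unnamed. All 12 markers of the macrophage- or microglia-like class, C1qa, Cx3cr1, Tmem119 and P2ry12 among them, were found in that class in both libraries, and T cell and neutrophil markers were at 0 UMIs there once 6 cells with T cell markers had been set aside. At least 2 of the 12 markers were carried by 92.2% of the WT and 74.7% of the ND6 cells of the class. By a count of detected markers, 205 of its 257 WT and 114 of its 174 ND6 cells were macrophage- or microglia-like. The part of this in the differences between the libraries was not tested.

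All 9 genes had their highest level in the macrophage- or microglia-like cells of the WT library, and 8 of the 9 did in the ND6 library. These cells held 1.52% of WT and 0.590% of ND6 UMIs. Levels are given as CPM, the UMIs of a gene per 1000000 UMIs summed over the cells of a class and library.

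Klf4, better known as a pluripotency factor, had the steepest pattern beside Klf2. Its level in the macrophage- or microglia-like class was 699 CPM in WT and 264 in ND6. In WT the Müller-like class followed with 102, a step of 6.82-fold (5.66 to 8.28), and amacrine-like cells came next with 2.52. The classes below these did not differ from their neighbours beyond counting error, and the haemoglobin-led cluster had none. In ND6 the Müller-like level was 2.53, rested on 3 UMIs, and could not be told from the RPE-like level of 0.581. Against all other cells together, Klf4 was 241-fold (201.3 to 289) higher in the macrophage- or microglia-like cells of the WT library and 1032-fold (605 to 1876) higher in those of the ND6 library. The class held 78.8% of the 736 Klf4 UMIs of all WT cells and 86.0% of the 114 of all ND6 cells. In rods, 10292 WT cells gave 12 Klf4 UMIs.

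Klf2, a factor best known from blood vessel lining and lymphocytes, stood at 889 CPM in WT and 563 in ND6 macrophage- or microglia-like cells. Müller-like cells came second with 21.7 and 6.74 CPM, and the remaining classes lay between 0 and 4.15 in WT and between 0 and 1.23 in ND6. Zfp36, the mRNA decay factor, stood at 820 and 818 in macrophage- or microglia-like cells, with 62.8 and 18.5 in Müller-like cells, and did not pass 6.98 elsewhere. For both genes the first 2 steps were larger than counting error in both libraries, and the classes from the third place down did not differ from their neighbours beyond it. Klf2, Klf4 and Zfp36 were also the 3 genes with most of their UMIs in this class, from 57.0% for Zfp36 in ND6 to 86.0% for Klf4 in ND6.

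The other 6 genes had a broader spread. Dusp1, the MAP kinase phosphatase, had 870 CPM in WT and 323 in ND6 macrophage- or microglia-like cells. In WT Müller-like cells followed with 227, then amacrine-like (50.4), bipolar-like (34.6), cone-like (29.2) and rod-like cells (26.4). No step among the last 4 was larger than counting error. In ND6 amacrine-like cells came second with 32.9, and no step from there down to the rods (18.7) was larger than counting error. Klf6, a factor found in many tissues, had 641 and 267. In WT Müller-like (43.4), amacrine-like (40.3), bipolar-like (25.6), cone-like (19.4) and rod-like cells (17.0) followed. No step among these classes was larger than counting error.

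Ier2 had 789 CPM in WT and 436 in ND6 macrophage- or microglia-like cells, followed by Müller-like cells with 261 and 66.5. Its WT order went on with amacrine-like (85.6), cone-like (71.1), rod-like (60.5) and bipolar-like cells (44.8), and only the amacrine-like and cone-like levels in this stretch did not differ beyond counting error. Btg2, the antiproliferative gene, had 1168 and 1422 CPM in macrophage- or microglia-like cells and was over 50 in every class. In WT Müller-like cells (526) were second and cones (322) came next, while in ND6 cones (314) and bipolar-like cells (252) came before rods (161) and Müller-like cells (159), which were not apart. Ier3 was the flattest. It had 286 CPM in WT macrophage- or microglia-like cells against 145 in rods, and 159 against 115 in ND6, and from the rods down no WT class differed from its neighbour beyond counting error.

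Nr4a1, the nuclear receptor, was the member whose first place changed. In WT it was highest in macrophage- or microglia-like cells (158 CPM), followed by amacrine-like cells (80.6) and cones (31.9), with rods at 5.59. In ND6 amacrine-like cells (25.4) came before macrophage- or microglia-like cells (18.8). This pair did not differ beyond counting error (1.35-fold, 0.609 to 3.52), and neither did any other neighbours of the ND6 order.

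**Figure D1:**
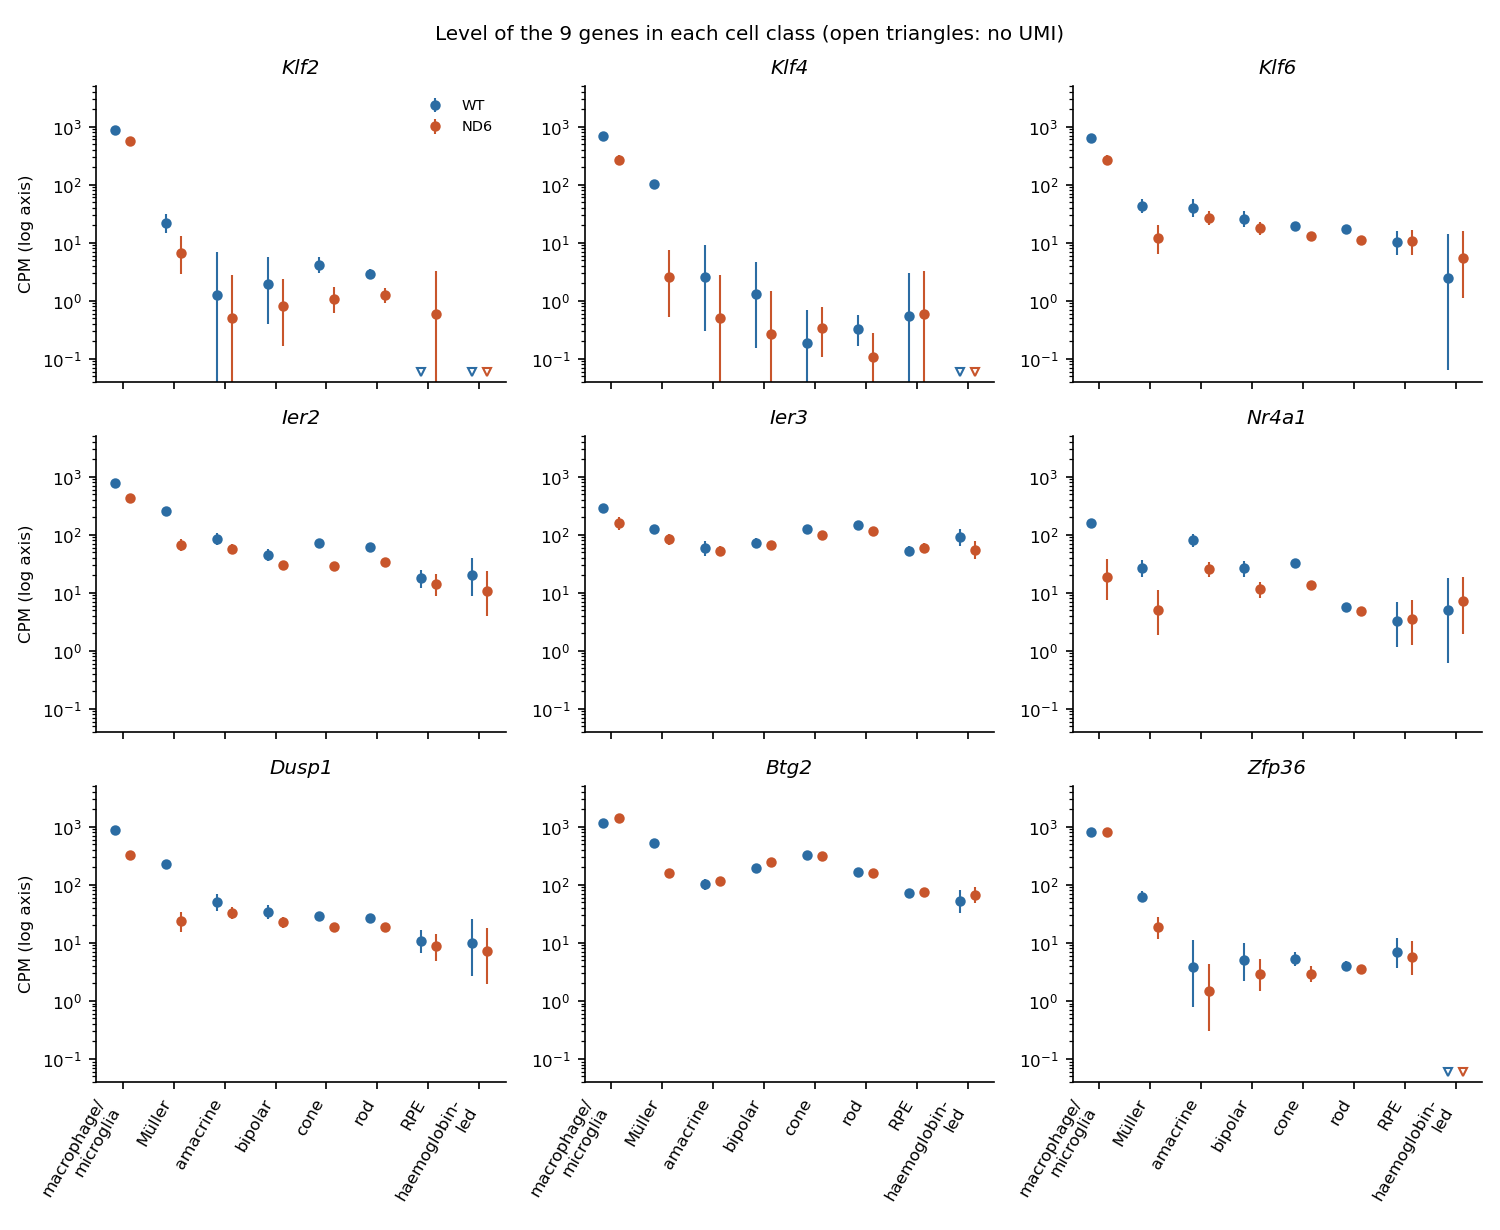
Level of each gene in CPM (log axis) in 8 cell groups of the WT (blue) and ND6 (orange) libraries, with 95% Poisson intervals for counting error; open triangles mark no UMI and long intervals run off the lower edge. Klf2, Klf4 and Zfp36 stand out in the macrophage- or microglia-like class (889, 699 and 820 in WT), while Ier3 and Btg2 are spread over all classes.

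Within the macrophage- or microglia-like class the genes were held by 1 of its 6 clusters. This cluster, led by C1qa, C1qb and the chemokine gene Ccl4, had 48 WT and 27 ND6 cells, 18.7% and 15.5% of the cells of the class and 46.6% and 35.9% of its UMIs. It carried 96.6% of the class's Klf4 UMIs in WT and 98.0% in ND6. For Klf2, Klf6, Ier2, Dusp1, Btg2 and Zfp36 the share was between 91.9% and 100%, and for Ier3, the lowest, 78.1% in WT and 78.0% in ND6.

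Klf4 had 1449 CPM in the Ccl4-led cluster of the WT library, against 45.1 in the other clusters of the class. In ND6 it had 721 against 8.39. Dusp1 had 1842 against 22.6 in WT and 879 against 12.6 in ND6. Zfp36 had 1710 against 42.9 and 2245 against 21.0. Klf2 had 1847 against 54.2 in WT, and in ND6 1569 against 0 of 238252 UMIs, with an upper limit of 15.5 CPM. Ier3 showed the smallest step, 479 against 117 in WT and 345 against 54.6 in ND6. In WT the steps ran from 4.08-fold (2.98 to 5.66) for Ier3 to 81.6-fold (44.1 to 171) for Dusp1. The cluster was formed from the same cells, so its contrast with the others is a description.

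The cells of the Ccl4-led cluster were deeper, with medians of 7766 UMIs in WT and 4937 in ND6 against 1324 and 1111 in the other clusters. After every cell was thinned to 400 UMIs, Dusp1 was found in 52.1% of the Ccl4-led WT cells and 0.478% of the other WT cells of the class. Klf4 was found in 25.0% and 0.478%, and in 0.0194% of WT rods, whose median was 1799 UMIs. A thinned cell of the Ccl4-led cluster carried a mean of 3.04 of the 9 genes in WT and 3.07 in ND6, whereas the other cells of the class carried 0.129 and 0.0612. So 77.1% of the WT and 77.8% of the ND6 cells of the cluster held at least 2 of the genes, against 2.87% and 0.680% of the others. No single cell decided the WT values: the cell with most Klf4 held 55 of the class's 580 UMIs. In ND6 1 cell held 28 of 98.

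The cells outside the Ccl4-led cluster differed in other ways. Their summed macrophage and microglia markers were at 10979 CPM in WT and 10451 in ND6, against 32312 and 48837 in the Ccl4-led cells. Their summed rod markers were at 46474 and 54375, against 9754 and 7696. The mtDNA share was 10.5% and 8.26% against 4.0% and 3.70%. Malat1, a nuclear RNA, was at 29293 and 29419 CPM in the Ccl4-led cells and at 22324 and 19349 in the others. The part of these features in the low levels of the 9 genes was not tested.

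**Figure D2:**
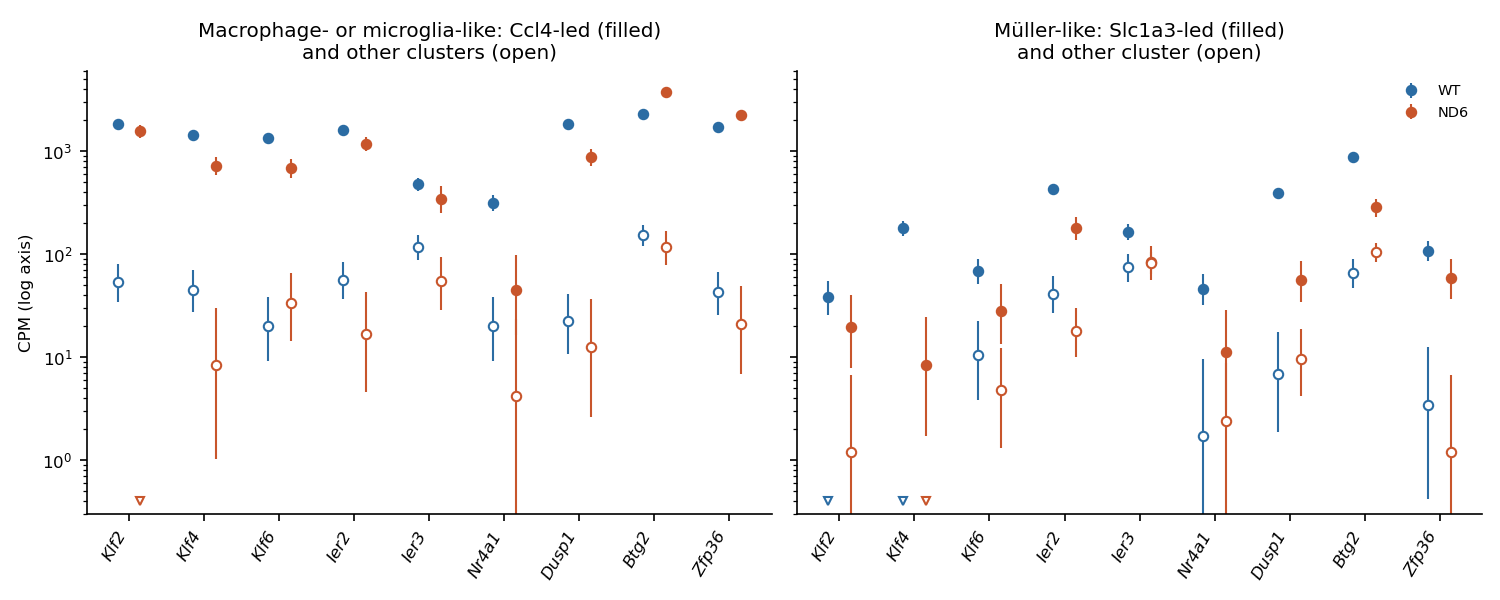
Level of each gene in CPM (log axis, 95% Poisson intervals, open triangles for no UMI) in 2 classes split by cluster, WT in blue and ND6 in orange. Left, the Ccl4-led cluster (filled) lies above the other macrophage- or microglia-like clusters (open) for all 9 genes. Right, the Slc1a3-led Müller-like cluster (filled) against the other one (open), with Klf4 at 180 CPM in WT and 8.40 in ND6.

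Across the 16 class and library sums, the members resembled each other and other early genes. The Pearson r of log2(CPM + 1) between members ran from 0.409 for Ier3 with Nr4a1 to 0.980 for Ier2 with Dusp1. Among 11868 other genes with at least 200 UMIs, the 3 most like Klf4 were Sat1 (r = 0.973), Jun (0.943) and Egr3 (0.940). For Klf2 they were Jun (0.967), Nfkbiz (0.966) and Icam1 (0.966), and for Klf6 Rhob (0.984), M6pr (0.967) and Mcl1 (0.957). Ier2 was nearest to Junb (0.986), Fosb (0.971) and Jun (0.957), and Dusp1 to Junb (0.982), Jund (0.970) and Jun (0.965). Jun, a subunit of the AP-1 factor, was thus among the nearest genes for 6 members. Btg2 was nearest to Socs3 (0.959), Jun (0.935) and Nfkbiz (0.923), and Zfp36 to Jun (0.956), Selenop (0.948) and Snx5 (0.947). Ier3 was nearest to Ddx5 (0.904), Cggbp1 (0.902) and Stk17b (0.889), none of them an early gene of the lists used here. Nr4a1 was nearest to Crem (0.876), Ptma (0.872) and Ndel1 (0.872). These points share libraries and differ in depth, and the values are a description.

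Over all cells, all 9 genes were lower in the ND6 library with an interval below 0, as were 28% of all genes. Klf4 went from 13.5 to 1.81 CPM (log2 ratio -2.90, interval -3.20 to -2.61), the largest difference of the 9. Klf2 went from 17.1 to 4.53 (-1.92, -2.11 to -1.73). Ier2 went from 76.7 to 35.2 (-1.12), Zfp36 from 18.4 to 8.47 (-1.12), Dusp1 from 44.8 to 21.2 (-1.08) and Klf6 from 28.0 to 13.8 (-1.02). These 6 were at least 2-fold lower, a size reached by 2.84% of the 15888 genes with at least 20 UMIs. Nr4a1 was at 15.2 and 7.93 (-0.94, -1.10 to -0.78) and Ier3 at 135 and 103 (-0.40, -0.44 to -0.35). Btg2 differed least, 215 against 206 (-0.06, -0.10 to -0.03). The median of the 9 was -1.08, against 0.07 over all genes. The genes were chosen with this difference known, so the shares are not read against each other.

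The count of 6 depended on how cells were weighted. It was 2, Klf2 and Klf4, when each cell had equal weight or when the mtDNA limit was dropped, and 3 when cells were thinned to 400 UMIs. Btg2 turned to a log2 ratio of 0.11, 0.10 and 0.18 in these settings. Fewer ND6 than WT cells were macrophage- or microglia-like (0.946% against 2.05%). A sum over all cells mixes the number of cells of a type with the level in them. Within this class Zfp36 was at 820 CPM in WT and 818 in ND6, and Klf4 at 699 and 264. Over all cells without this class the median log2 ratio was -0.72, with Klf2 at -1.58, Klf4 at -3.51 and Zfp36 at -0.71. That Klf4 value rested on 156 WT and 16 ND6 UMIs, of which 137 and 3 lay in Müller-like cells, so it does not describe the other classes.

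**Figure D3:**
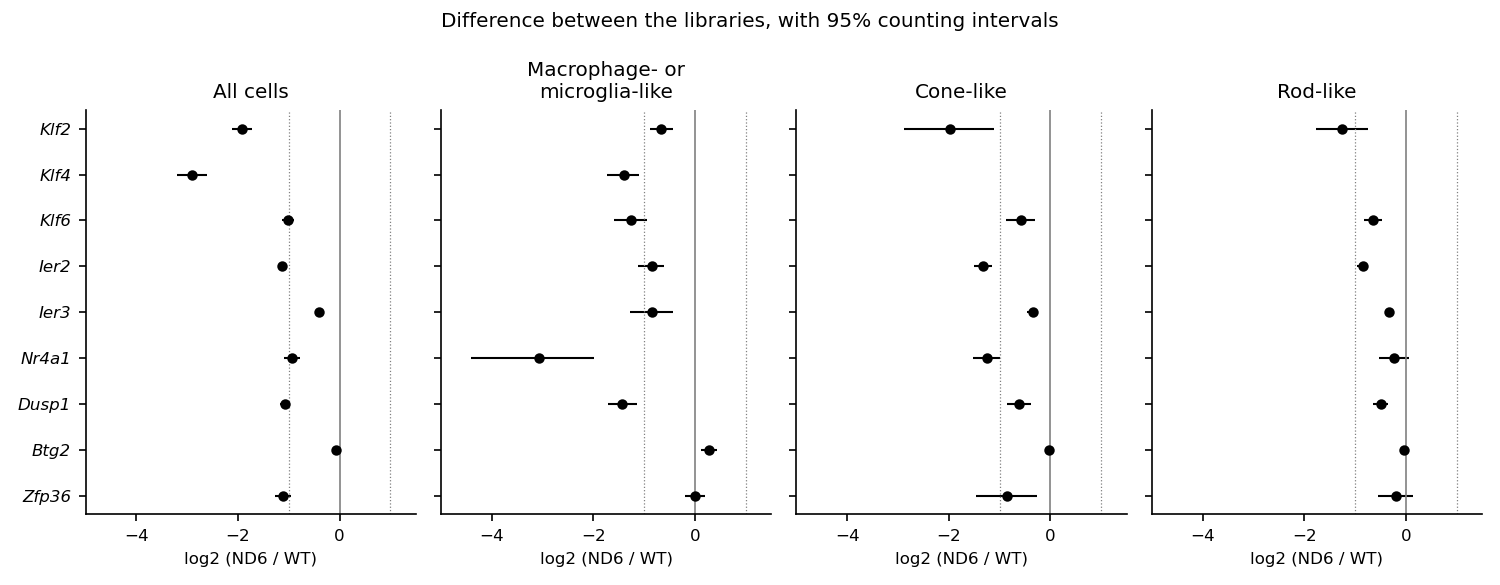
Log2 ratio of ND6 over WT for each gene, over all cells and in 3 classes, with exact 95% intervals for counting error; dotted lines mark 2-fold, and genes under 20 UMIs in a class are left out. Klf4 lies at -2.90 over all cells and -1.41 in macrophage- or microglia-like cells, where Btg2 (0.28) and Zfp36 (0.00) did not share the direction of the others.

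Within the macrophage- or microglia-like class, 7 of the 9 genes were lower in ND6 with an interval below 0 (8.47% of all genes were), Btg2 had an interval above 0 and that of Zfp36 held 0. Nr4a1 showed the largest difference, from 131 UMIs in WT to 7 in ND6 (158 and 18.8 CPM, log2 ratio -3.07, -4.41 to -1.98). Dusp1 was at -1.43 (-1.72 to -1.15), Klf4 at -1.41 (-1.73 to -1.09) and Klf6 at -1.27 (-1.59 to -0.95). Ier2, Ier3 and Klf2 differed by less than 2-fold, at -0.86, -0.85 and -0.66. Btg2 was at 0.28 (0.13 to 0.44) and Zfp36 at 0.00 (-0.20 to 0.20). Scaling the class by the median of ratios in place of its UMI sum shifted all values by 0.15, which put Btg2 at 0.14, with an interval that then held 0, and Zfp36 at -0.15. Thus 4 of 9 were at least 2-fold lower, against 7.25% of the 7080 genes with 20 UMIs in the class.

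The directions of the ratios of summed UMIs were alike among the Ccl4-led cells alone, of which there were 48 and 27, except that Zfp36 was higher. Nr4a1 had 122 and 6 UMIs there (316 and 45.1 CPM, log2 ratio -2.81, -4.28 to -1.65). Dusp1 was at -1.07, Klf4 at -1.01 (-1.33 to -0.69) and Klf6 at -0.99. Ier3 was at -0.47 (-0.97 to 0.00), Ier2 at -0.46 and Klf2 at -0.24 (-0.46 to -0.01). Btg2 was at 0.69 (0.53 to 0.85), with 2331 and 3754 CPM, and Zfp36 at 0.39 (0.19 to 0.59). These 2 genes had intervals above 0, as did 8.37% of all genes there. There, 3 of 9 were at least 2-fold lower, against 13.3% of 4194 genes. The share of thinned cells with a gene did not follow these sums for each gene. Klf4 was found in 25.0% of WT and 25.9% of ND6 cells of the cluster, and Klf6 in 33.3% of both. For Ier2 the shares were 43.8% and 44.4%, for Klf2 39.6% and 51.9%, for Zfp36 45.8% and 48.1% and for Btg2 43.8% and 70.4%. Lower shares in ND6 were seen for Dusp1 (52.1% and 33.3%), Ier3 (16.7% and 0%) and Nr4a1 (4.17% and 0%). The summed Müller markers, a list that includes Apoe, were at 2533 CPM in the WT and 9799 in the ND6 cells of the cluster, and the part of this in the differences was not tested.

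Summed over Müller-like cells, all 9 genes were lower in ND6, 8 of them at least 2-fold, against 4.16% of 9619 genes. Klf4 had 137 UMIs in WT and 3 in ND6 (log2 ratio -5.34, -7.64 to -3.76). Dusp1 went from 227 to 23.6 CPM (-3.27, -3.88 to -2.71), Nr4a1 from 26.9 to 5.05 (-2.41) and Ier2 from 261 to 66.5 (-1.97). Klf6 was at -1.88, Zfp36 at -1.76, Btg2 at -1.72 and Klf2 at -1.69. Ier3, at -0.60 (-0.97 to -0.23), was the exception to the 2-fold size.

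These values rested on 1 of 2 clusters. A cluster led by Cp, Aqp4, Hes1 and the glutamate transporter gene Slc1a3 had 37 WT and 94 ND6 cells, and every Klf4 UMI of the class lay in it, in 14 WT and 2 ND6 cells. It held 760352 of the 1337425 WT UMIs of the class but 357083 of the 1187693 ND6 UMIs. The other cluster, with 348 and 482 cells, was low in Malat1 (8276 and 13112 CPM against 47228 and 41489) and had between 0 and 10.4 CPM of Klf2, Klf4, Klf6, Nr4a1, Dusp1 and Zfp36 in both libraries. In this larger cluster Btg2 was higher in ND6, with 38 and 87 UMIs (log2 ratio 0.67, 0.10 to 1.26), Ier3 was at 0.16 (-0.41 to 0.74) and Ier2 at -1.20 (-2.24 to -0.21), while the other 6 had under 20 UMIs. Its summed rod markers were at 62089 CPM in WT and 51969 in ND6, against 61474 and 68253 in rod-like cells. Its summed Müller markers were at 2948 and 5457, against 12394 and 13148 in the Slc1a3-led cluster. By a count of detected markers, 133 of the 385 WT and 326 of the 576 ND6 cells of the class were Müller-like. Sums over the class are thus not levels of Müller cells alone. Within the Slc1a3-led cluster the genes were all lower in ND6, with a median log2 ratio of -1.29, and 6 were at least 2-fold lower, against 6.66% of 8111 genes. Klf4 was at -4.42 (-6.72 to -2.85), Dusp1 at -2.82 (-3.55 to -2.16), Nr4a1 at -2.04 (-3.99 to -0.56) and Btg2 at -1.61 (-1.93 to -1.31). Klf2, with 29 and 7 UMIs, was at -0.96 (-2.40 to 0.26).

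The depth of the Slc1a3-led cells differed, with medians of 10329 UMIs in WT and 1662 in ND6. Their mtDNA share was 4.92% and 6.93%, their summed cone markers were at 2640 and 980 CPM and their rod markers at 35437 and 36420, and the part of these in the differences was not tested. Of the WT cells 11 had over 20000 UMIs, and without such cells Klf4 was at 520 CPM (114 UMIs in 26 cells) in WT and 10.2 (3 UMIs in 92 cells) in ND6. The 14 WT cells with Klf4 had 10 of 10 Müller markers and 3 of 9 endothelial markers, with 203 endothelial marker UMIs, 119 of them Flt1, beside 5073 Müller marker UMIs. Their endothelial marker level was 752 CPM, against 540 in the 23 WT cells without Klf4, and the part of this in the Klf4 level was not tested. Macrophage and microglia markers had 8 UMIs in these cells. One of them held 44 of the 137 Klf4 UMIs.

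Cones showed a smaller difference of the same sign. Of the 8 genes with at least 20 UMIs in cones, 8 were lower in ND6 and 3 at least 2-fold, against 1.27% of 12276 genes. Klf2 had 44 and 16 UMIs (log2 ratio -1.97, -2.89 to -1.11). Ier2 went from 71.1 to 28.4 CPM (-1.32, -1.50 to -1.15) and Nr4a1 from 31.9 to 13.3 (-1.26, -1.52 to -1.0). Zfp36 was at -0.86, Dusp1 at -0.62, Klf6 at -0.59 and Ier3 at -0.35. Btg2, at -0.04 (-0.10 to 0.03), had an interval that held 0 in the sum, but was higher in 2 of the 3 cone-like clusters (1.67, 0.71 to 2.79, and 0.17, 0.07 to 0.26) and lower in 1 (-0.10, -0.19 to -0.01). Ier2 was lower in each of the 3, with log2 ratios of -1.03 to -2.44.

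Nr4a1 was also lower in both classes of inner retinal neurons. In amacrine-like cells Nr4a1 went from 80.6 to 25.4 CPM (log2 ratio -1.67, -2.23 to -1.11) and was the 1 member at least 2-fold lower of 6 with 20 UMIs, against 2.25% of 10681 genes. In bipolar-like cells it went from 26.3 to 11.4 (-1.20, -1.85 to -0.55), again 1 of 6, against 1.5% of 11346 genes. Dusp1 and Ier2 were lower in both, at -0.62 and -0.59 in amacrine-like and -0.60 and -0.59 in bipolar-like cells. Btg2 was higher in bipolar-like cells, at 0.39 (0.20 to 0.58), and at 0.20 (-0.17 to 0.58) in amacrine-like cells. Summed ganglion cell markers were at 1772 CPM in the WT and 812 in the ND6 amacrine-like cells, and Müller markers at 856 and 2010. In bipolar-like cells Müller markers were at 496 and 1581. The part of these in the differences was not tested.

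In rods, which held most cells, the differences were smaller. Ier2 went from 60.5 to 33.5 CPM (log2 ratio -0.85, -0.95 to -0.75), Klf6 from 17.0 to 10.9 (-0.64), Dusp1 from 26.4 to 18.7 (-0.50) and Ier3 from 145 to 115 (-0.34, -0.39 to -0.28). Klf2, with 108 and 46 UMIs, was the 1 member of 8 that was at least 2-fold lower (-1.25, -1.78 to -0.74), against 1.13% of 13655 genes. Nr4a1, Zfp36 and Btg2 were at -0.23, -0.20 and -0.03, each with an interval that held 0.

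The rod-like cells came in 14 clusters that differed widely in these genes and in Malat1 (1107 to 73865 CPM in WT and 2190 to 84788 in ND6). Btg2 ran from 29.3 CPM in the lowest WT cluster to 282 in the highest, and from 52.2 to 342 in ND6. Ier2 ran from 15.2 to 122 in WT and from 12 to 81.7 in ND6. Dusp1 ran from 1.30 to 47.2 and from 5.19 to 50.2. Across the 14 clusters of a library, Pearson r with log2 Malat1 was 0.976 and 0.979 for Btg2 (WT and ND6), 0.971 and 0.938 for Ier2, and 0.949 and 0.944 for Dusp1. Btg2, Ier2 and Dusp1 were thus highest in rod-like clusters rich in this nuclear RNA, as a description over clusters that share a library and differ in depth. Klf4, at no more than 1.86 CPM in any rod-like cluster, gave 0.347 and 0.0588, and Klf2 0.895 in WT and 0.292 in ND6. The highest ND6 cluster for Klf2, with 3350 CPM of Malat1, held 2 Klf2 UMIs. Only 1 of the 14 clusters had at least 20 Klf2 UMIs over both libraries, so its r rests on few counts.

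Compared cluster by cluster, the direction held for some genes and not for others. Ier2 was lower in ND6 in 13 of the 14 rod-like clusters, 7 of them with an interval below 0, and Ier3 in 13 of 14, 4 of them with an interval below 0. Btg2 was higher in ND6 in 14 of 14, with an interval above 0 in 6, although its sum over rods was level. Malat1 also differed between the libraries within clusters. In the cluster with the highest Btg2 in both libraries, Malat1 was at 69941 CPM in WT and 83469 in ND6. In the cluster with the lowest Dusp1 in both, Malat1 was at 1430 and 3110. The part of this in the Btg2 difference was not tested. Dusp1 was lower in 3 and higher in 4 of the 7 clusters with at least 20 UMIs, and its median log2 ratio there was 0.09. The 3 clusters with lower Dusp1 each had an interval below 0, and none of the 4 others had one above it.

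**Figure D4:**
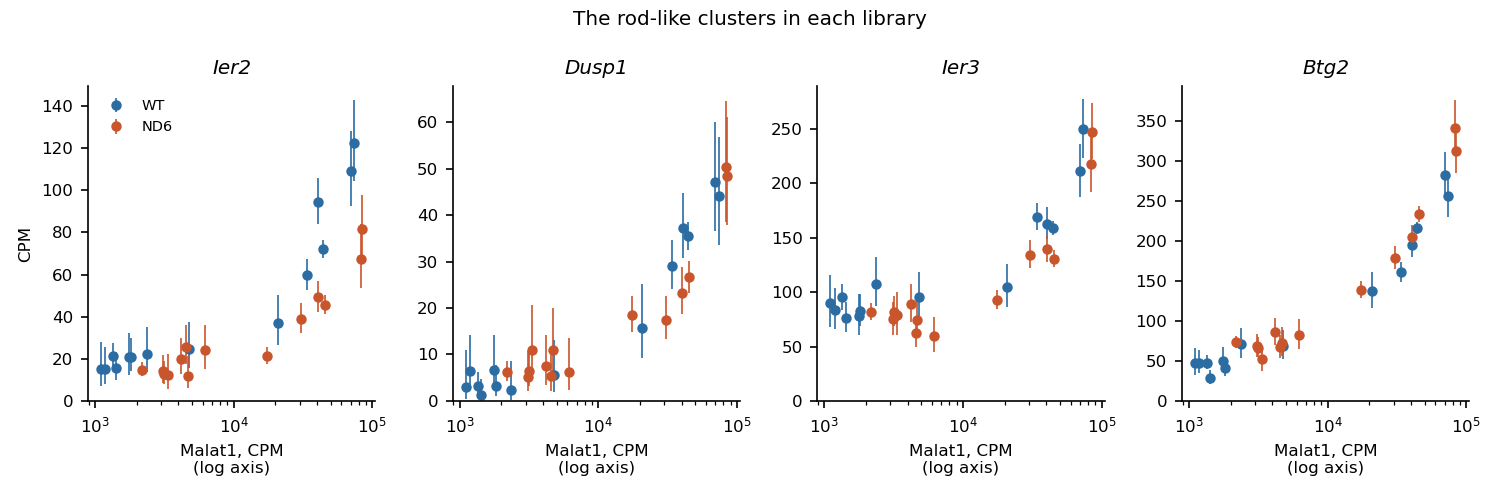
Level of 4 genes in the 14 rod-like clusters of the WT (blue) and ND6 (orange) libraries against the Malat1 level of the same cluster (log axis), all in CPM, with 95% Poisson intervals. Each gene climbs with Malat1. Among the Malat1-rich clusters the ND6 points lie below the WT points for Ier2. For Btg2 the highest cluster was at 282 CPM in WT and 342 in ND6.

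Summed over RPE-like cells, no member was past 2-fold in either direction among the 6 with 20 UMIs (2.46% of 9647 genes were at least 2-fold lower and 3.06% higher), and each of the 6 intervals held 0, where 9.78% of genes had an interval below and 10% one above it. Btg2 was at 71.4 and 74.4 CPM there, Ier3 at 53.1 and 59.3 and Ier2 at 17.7 and 14. The 2 libraries filled the 3 RPE-like clusters differently, with 128 WT and 758 ND6 cells in the first, 147 and 211 in the second and 100 and 4 in the third. Within the first, Btg2 was lower in ND6 (-1.09, -1.81 to -0.37), and within the second it was at -0.12 (-0.56 to 0.33). In barcodes of 10 to 100 UMIs, which hold RNA free in the suspension, Dusp1 was at 97.3 CPM in WT and 15.4 in ND6, Ier2 at 102 and 38.5 and Klf2 at 44.2 and 2.57, from 226145 and 389287 UMIs. The part of this free RNA in the levels of the neuronal classes was not tested.

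The members were compared with a list of 32 other early genes, Fos, Jun, Egr1 and Atf3 among them, and with 35 relatives from their own families. Of the early genes 30 of the 31 with at least 20 UMIs were lower in ND6 over all cells, 17 of these at least 2-fold, with a median of -1.03. Of all genes, 2.84% were at least 2-fold lower. The lowest were the AP-1 partner Maff (-2.98, -4.04 to -2.06), Csrnp1 (-2.86) and the zinc-finger factor Egr3 (-2.64, -3.08 to -2.23). Of the 30 family genes with at least 20 UMIs, other Klf, Ier, Nr4a, Dusp, Btg and Zfp36 genes, 18 were lower and 12 higher, 4 of them at least 2-fold lower, with a median of -0.08. The highest were Dusp16 (0.59, 0.34 to 0.84), Dusp10 (0.50) and Klf7 (0.49, 0.39 to 0.59). Both lists were drawn up with earlier results of these data known.

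In macrophage- or microglia-like cells 24 of 26 early genes were lower, 16 at least 2-fold, with Csrnp1 (-3.72), the stress factor Atf3 (-3.09, from 1310 to 153 CPM) and Trib1 (-3.09) lowest. Of the 18 family genes 11 were lower, 5 at least 2-fold. Of all genes in the class, 7.25% were at least 2-fold lower. Over both lists the highest were the family genes Dusp6 (0.95, 0.48 to 1.43) and Dusp7 (0.81), which are MAP kinase phosphatases, and the early gene Cebpd (0.84). In Müller-like cells 22 of 22 early genes were lower, 14 at least 2-fold, led by the cytokine signalling inhibitor Socs3 (-3.89, from 67 to 4 UMIs), Cebpb (-3.26) and Fosb (-2.89). Of the 17 family genes 14 were lower there too, 5 at least 2-fold, with a median of -0.60. Of all genes in that class, 4.16% were at least 2-fold lower. The 3 highest, all family genes, were Klf7 (0.64), Dusp8 (0.28) and Klf12 (0.17), and their intervals held 0. In cones Egr1 (-2.91, -2.99 to -2.82), Fosb (-2.90) and Fos (-2.41) were lowest, and in rods Egr1 (-2.33), Fosb (-2.28) and Fos (-1.86). Dusp16 was highest in both, at 1.08 (0.51 to 1.67) in cones and 2.24 (1.40 to 3.19) in rods, followed by Dusp10 (0.60) and Dusp4 (0.44) in cones and Klf3 (1.24) and Zfp36l1 (0.91) in rods. In amacrine-like cells Ier5l (-2.16), Fos (-1.99) and Fosb (-1.84) were lowest and Klf7 (1.12) highest, and in bipolar-like cells the stress gene Gadd45g (-1.99), Egr1 (-1.58) and Fos (-1.48) were lowest and Klf12 (0.73) highest. RPE-like cells, where no member had an interval without 0, had Egr1 at -1.91 (-2.51 to -1.34) and Fos at -1.04.

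**Figure D5:**
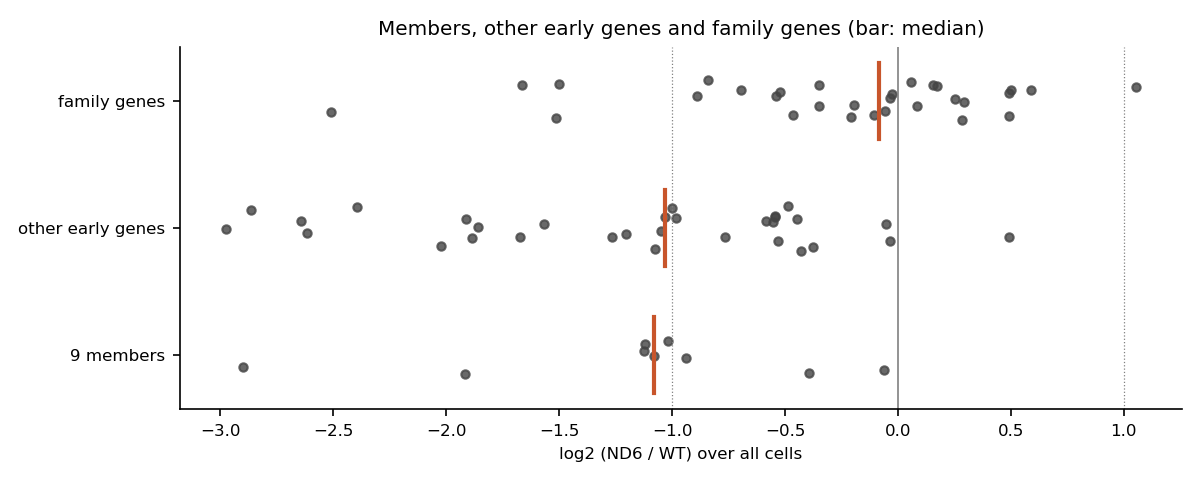
Log2 ratio of ND6 over WT over all cells for the 9 members, 31 other early genes and 30 family genes with at least 20 UMIs; each point is 1 gene, placed at random height within its row, and the bar is the median. The members (median -1.08) and the other early genes (-1.03) lie to the left of 0, while the family genes spread about it (-0.08).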

How the data were processed

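Single cells of whole retina were captured with the 10x Genomics 3′ chemistry. Per the labels, the authors aligned reads to mm10 with Cell Ranger 3.0.2, and the deposited matrices hold unnormalized UMI counts per gene and barcode. Only 1 library per genotype was analysed here, so raw counts were summed per library and class and compared as log2 ratios of CPM with exact conditional binomial intervals. Levels carry exact Poisson intervals and shares exact Clopper-Pearson intervals. A gene was called where the ratio reached 2-fold, with at least 20 UMIs. Clustering used scanpy 1.11.5 and leidenalg 0.10.2 (3000 variable genes scaled within each library, 30 components, 20 neighbours, resolution 2), with the 9 genes, their relatives, the early genes and mtDNA genes left out. A cluster took the class with the highest mean fold of its markers, if at least 3 and at least 50% of them were raised 2-fold or more and 2 stood among its 10 leading genes. Rod-like clusters needed 3 raised markers. The larger macrophage- or microglia-like cluster was clustered again at resolution 1, while the Ccl4-led cluster, with 48 WT and 27 ND6 cells, was too small for this and was kept whole. From the class, 6 cells with T cell markers were set aside. This rule was settled after the clusters were seen. Scrublet called 0 WT and 1 ND6 doublets and so did not work; removing the highest 10% of its scores was an alternative. The study's regression of stress and cell cycle scores was not repeated.

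All 9 genes are described. Of the companion lists, the 3 highest and 3 lowest with at least 50 UMIs are named, and for each member the 3 most like genes. The members and lists were chosen with earlier results of these data known. The clusters named by Ccl4 and Slc1a3, and Malat1, were picked out once their values were known. The ratio and its interval were run on simulated Poisson counts, the model that the interval assumes. These leave out the clumping of UMIs in single cells, so they cannot show how the interval performs on the measured counts.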

Additional observations from a re-analysis of the deposited data

Results flagged for a closer look

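Btg2 differed in direction between classes. Its log2 ratio of ND6 over WT was 0.28 in macrophage- or microglia-like and 0.39 in bipolar-like cells, each with a counting interval above 0, and -1.72 in Müller-like cells, with an interval below 0. The macrophage- or microglia-like interval held 0 once the class was scaled by the median of ratios. The Müller-like value rested on the Slc1a3-led cluster (-1.61), since in the other Müller-like cluster Btg2 was at 0.67 (0.10 to 1.26). The difference between classes was not tested, since each class has 1 library per genotype. In the barcodes above the mtDNA limit, which entered only the alternative without that limit, Btg2 was also higher in ND6, with 46.9 CPM in WT and 58.6 in ND6 (0.32, 0.11 to 0.53).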

How the results depend on the processing

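No paired analysis was possible because each genotype has 1 library. Over all cells, the median log2 ratio of the 9 genes, -1.08, was -0.90 without the mtDNA limit, -0.72 with each cell weighted equally, -0.78 with cells thinned to 400 UMIs and -1.24 without cells of over 20000 UMIs. It was -0.72 without the macrophage- or microglia-like class, -0.73 without its Ccl4-led cluster and -0.53 without the Ccl4-led and the Slc1a3-led clusters. The count of 6 genes at least 2-fold lower was 2 without the mtDNA limit, 2 with equal weights and 3 after thinning. In Müller-like cells the median of -1.88 was -1.15 and the count of 8 was 5 without the mtDNA limit, and the count was 5 of the 6 genes that reach 100 UMIs. In rods the median of -0.42 was -0.27 without the mtDNA limit, -0.22 with equal weights and -0.20 after thinning. The cause of these shifts was not tested, apart from thinning, equal weights and left-out cells, which change the cells' share by construction. The other 105 of 121 summary values stayed within the counting interval of the value reported, or within 1.5 times of a count. Of 552 single values, 133 moved out of the counting interval of the value reported. Of 99 single log2 ratios over all cells, 95 kept their sign. The sign was kept by 76 of 76 in Müller-like, 75 of 79 in macrophage- or microglia-like and 66 of 68 in cone-like cells. It was kept by 66 of 72 in rod-like, 46 of 48 in amacrine-like, 47 of 49 in bipolar-like and 34 of 45 in RPE-like cells. Scaling by the median of ratios shifted macrophage- or microglia-like values by 0.15. Thinning left too few UMIs for a median in classes other than rods. Settings that drop the Ccl4-led and Slc1a3-led clusters, cells of over 20000 UMIs or shared barcodes were chosen after seeing the data. With 1 library per genotype, depth limits only the counting error.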
